A study of Mus musculus with 6 samples.

Results

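Ccnb1ip1, Ap5m1, Cgrrf1, Armh4, Klhl33, Rnaseh2b and Med4 are 7 genes of mouse chromosome 14. On 6 heart arrays their signal followed, or mirrored, that of Ogdhl to differing degrees. The likeness was weakest for Cgrrf1 and for Med4, which joins the set through 1 of its 2 probe sets only. The 7 genes were chosen on the measured values of these same arrays. The rule took genes that differ when the arrays labelled WT 2 and VAChT KD 2 change groups. All probe sets annotated with 1 of these symbols alone were taken, which gave 8 probe sets for the 7 genes, 2 of them for Med4. On chromosome 14 these stand among 745 probe sets and 698 genes with 1 symbol, and on the whole array among 21789 probe sets and 19938 genes with 1 symbol, of 35556 probe sets in all.

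The arrays were Affymetrix Mouse Gene ST arrays, which read a transcript with several short probes grouped into a probe set. VAChT KD arrays held heart RNA of homozygous knockdown mice with reduced levels of the vesicular acetylcholine transporter (VAChT, encoded by Slc18a3), and WT arrays that of age-matched wild-type mice, with 3 arrays in each group. All mice were untreated males of 3 months, and each array received a pool of 2 RNA samples. The labels give the strain as C57BL/6 and the tissue as heart, whereas the methods describe ventricles of mice on a mixed background, backcrossed to C57BL6/j for 3 generations. Whether any pools shared an animal is not stated, so p-values measure only the spread between these arrays.

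VAChT loads acetylcholine into the synaptic vesicles of cholinergic neurons, including the parasympathetic fibres that slow the heart. Slc18a3 itself lies on chromosome 14. Ogdhl encodes a mitochondrial protein related to the oxoglutarate dehydrogenase of the citric acid cycle. The products of the 7 genes act in different processes. Ccnb1ip1 encodes a RING finger protein required for crossing over in meiosis, Rnaseh2b a subunit of the RNase H2 complex that removes ribonucleotides from DNA, and Med4 a subunit of Mediator, which links transcription factors to RNA polymerase II. Ap5m1 encodes a subunit of the AP-5 adaptor complex of late endosomes and Klhl33 a protein of the Kelch-like family, many of whose members hand substrates to cullin ubiquitin ligases. Cgrrf1 encodes another RING finger protein, and Armh4 is named for an armadillo-like helical domain.

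Genes were ordered along the chromosome by their RefSeq positions (GRCm38.p6), counting the 698 genes that have a probe set with 1 symbol. Ogdhl stood at place 151, 3 places before Slc18a3 at 154. Cgrrf1 stood at place 225, Ap5m1 at 242, Armh4 at 246, Ccnb1ip1 at 273 and Klhl33 at 276. The remaining genes lay farther along, Rnaseh2b at 465 and Med4 at 574. Thus 5 of the 7 genes fell within a stretch of 52 genes, whose ends are set by the members Cgrrf1 and Klhl33. All 7 lay on the same side of Slc18a3, 71 to 420 places away. Most of the 698 genes lie on that side, since Slc18a3 stands at place 154.

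Promoter windows, from 250 bases before to 50 bases after the start of the gene, were taken from RefSeq (GRCm38.p6), in which 6 of the 7 genes matched. They are shown for Ogdhl and for the 4 genes with the widest differences in the exchanged grouping described below, so that genes which moved together or in opposite directions can be read side by side. Capitals mark matches, on either strand, to 7 motifs. Named elements were the TATA box TATAAA, the CCAAT box, the GC box GGGCGG, the E-box CACGTG and the cyclic AMP response element TGACGTCA. The other motifs were the A/T-rich sequence CTATTTTA and the palindrome TTCCGGAA. The windows lie at chr14:32321769-32322068 on the plus strand for Ogdhl, at chr14:50795679-50795978 on the minus strand for Ccnb1ip1 and at chr14:49783334-49783633 on the minus strand for Armh4. Those of Ap5m1 and Klhl33 lie at chr14:49066299-49066598 on the plus strand and at chr14:50897434-50897733 on the minus strand.
Ogdhl: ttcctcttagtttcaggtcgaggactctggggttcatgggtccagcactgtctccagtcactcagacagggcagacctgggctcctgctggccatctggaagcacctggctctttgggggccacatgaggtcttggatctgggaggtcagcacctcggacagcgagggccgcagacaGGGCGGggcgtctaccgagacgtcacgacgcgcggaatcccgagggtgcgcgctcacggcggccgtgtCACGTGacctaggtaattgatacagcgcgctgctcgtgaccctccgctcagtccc
Ccnb1ip1: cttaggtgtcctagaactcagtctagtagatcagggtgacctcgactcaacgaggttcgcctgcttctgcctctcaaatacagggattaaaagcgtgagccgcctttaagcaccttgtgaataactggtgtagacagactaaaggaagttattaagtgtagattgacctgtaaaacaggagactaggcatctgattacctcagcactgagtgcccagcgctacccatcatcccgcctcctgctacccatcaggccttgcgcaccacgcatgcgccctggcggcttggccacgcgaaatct
Ap5m1: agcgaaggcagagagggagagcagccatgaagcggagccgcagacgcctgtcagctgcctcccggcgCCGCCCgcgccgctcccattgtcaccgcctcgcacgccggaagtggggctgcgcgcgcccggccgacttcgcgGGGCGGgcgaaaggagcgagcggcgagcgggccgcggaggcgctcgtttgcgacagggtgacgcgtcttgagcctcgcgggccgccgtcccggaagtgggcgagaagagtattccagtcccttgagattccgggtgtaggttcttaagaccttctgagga
Armh4: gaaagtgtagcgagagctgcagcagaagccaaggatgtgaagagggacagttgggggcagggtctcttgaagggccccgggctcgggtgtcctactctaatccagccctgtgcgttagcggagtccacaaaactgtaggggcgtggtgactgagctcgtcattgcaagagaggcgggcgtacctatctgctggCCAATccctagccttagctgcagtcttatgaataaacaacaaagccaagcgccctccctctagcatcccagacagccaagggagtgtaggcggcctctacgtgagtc
Klhl33: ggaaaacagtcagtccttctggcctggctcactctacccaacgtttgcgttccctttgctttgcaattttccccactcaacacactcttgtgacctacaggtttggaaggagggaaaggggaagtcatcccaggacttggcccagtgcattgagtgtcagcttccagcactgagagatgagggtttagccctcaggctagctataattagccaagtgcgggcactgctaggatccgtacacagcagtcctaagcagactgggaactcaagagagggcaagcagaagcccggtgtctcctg

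No motif was common to these windows. GGGCGG occurred in the windows of Ogdhl, Ap5m1, Cgrrf1 and Med4, and in 35.7% of all 32851 windows of this length. CCAAT occurred in Armh4, Cgrrf1 and Med4, and in 37.4% of all windows. CACGTG occurred in Ogdhl alone, against 7.15% of all windows. The windows of Ccnb1ip1 and Klhl33, the latter with 2 start sites in the table, held no match. No window held the TATA box (13.6% of all windows), the cyclic AMP response element (1.79%), CTATTTTA (0.947%) or TTCCGGAA (0.712%). The GC content of the windows ran from 45% at the second start of Klhl33 to 69.7% for Ap5m1, against a median of 52.7%.

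The deposited values are log2 signals summarised with RMA, so a difference of 1 is a doubling. The median signal of the arrays lay between 6.84 and 6.89 for VAChT KD and between 6.91 and 6.98 for WT. The 6 cardiomyocyte markers examined averaged 13.20 on the array labelled VAChT KD 1 and 13.87 to 13.95 on the other 5, so all arrays carried the muscle signal that their label names. Of 11 marker lists none separated the groups formed by exchanging the arrays numbered 2, and 3 separated the labelled groups. Adipocyte, skeletal muscle and neuronal markers were lower on VAChT KD arrays by 0.16, 0.20 and 0.12. Over all probe sets, 19.2% did not overlap between the labelled groups. The 3 lists averaged only 6.56, 6.60 and 6.32 over the 6 arrays, with 2 adipocyte genes measured. These means lie near 6.51, the 95th percentile of the mean signals of 1023 olfactory receptor probe sets, a level taken as close to background. The part of these marker shifts and of the lower cardiomyocyte signal on VAChT KD 1 in the values that follow was not tested. In such bulk RNA, fewer cells of a type and less RNA per cell cannot be told apart. Slc18a3 read 7.24, 6.77 and 7.58 on the arrays labelled VAChT KD 1, 2 and 3, against 7.31, 7.42 and 7.11 on those labelled WT 1, 2 and 3. The targeted gene therefore did not separate the labelled groups, with a difference of -0.08 and a standard error (SE) of 0.20 (limma adjusted p = 0.873).

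Ogdhl, the gene against which the others were set, had the widest range of the genes described here. Its log2 signal was 7.06, 10.17 and 7.09 on the arrays labelled VAChT KD 1, 2 and 3, against 9.60, 7.21 and 10.33 on those labelled WT 1, 2 and 3. Each array numbered 2 therefore lay with the other genotype, and the labelled groups overlapped over most of their range. The labelled means were 8.11 ± 1.79 in VAChT KD and 9.05 ± 1.63 in WT (SD, n = 3 arrays each), a difference of -0.94 (SE 1.03, limma adjusted p = 0.700). When the arrays numbered 2 were exchanged, the first group held VAChT KD 1, VAChT KD 3 and WT 2 and the second held WT 1, WT 3 and VAChT KD 2. Means of the first and second groups were then 7.12 ± 0.08 and 10.03 ± 0.39 (SD, n = 3 arrays each), a 7.53-fold lower signal with a gap of 2.39 between the nearest arrays. Below, differences in this exchanged grouping are the first group minus the second. They come from the contrast that chose the genes and are given as a description, without a test. Whether the labels of the arrays numbered 2 name the RNA that these arrays held cannot be told from the labels. Slc18a3 overlapped between the groups of either grouping, so its values cannot settle this either. Every labelled difference and p given here therefore holds only as far as these 2 labels do.

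**Figure D1:**
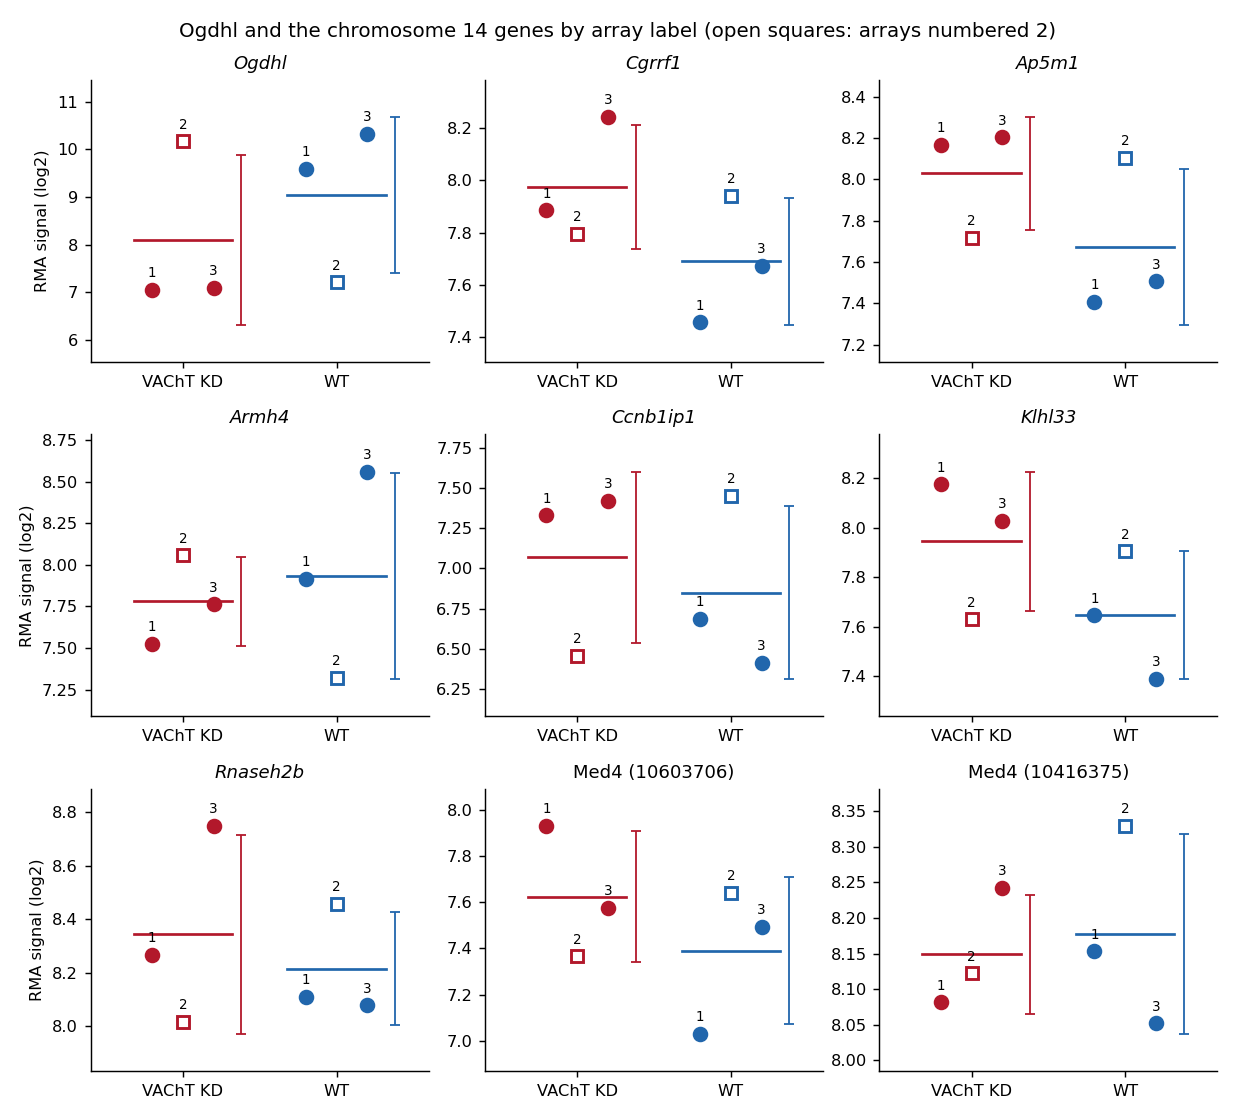
RMA signal (log2, vertical axes, each with its own range) of Ogdhl and of the 8 probe sets of the 7 genes on the 6 arrays, by label, numbered as in the labels. Filled circles are arrays numbered 1 and 3, open squares arrays numbered 2, horizontal lines group means and bars the SD over 3 arrays; the open squares of Ogdhl lie at 10.17 for VAChT KD and 7.21 for WT, each beside the filled circles of the other genotype.

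Ccnb1ip1 mirrored Ogdhl most closely. It read 7.33, 6.45 and 7.42 on the arrays labelled VAChT KD 1, 2 and 3, against 6.69, 7.45 and 6.41 on WT 1, 2 and 3. The 3 arrays low for Ogdhl were the 3 high for Ccnb1ip1 (7.40 ± 0.06, SD). The labelled groups averaged 7.07 ± 0.53 in VAChT KD and 6.85 ± 0.54 in WT (SD, n = 3 arrays each), a difference of 0.22 (SE 0.33, limma adjusted p = 0.784). In the exchanged grouping the difference was 0.88, or 1.85-fold, with a gap of 0.65. On its low arrays Ccnb1ip1 lay around the 95th percentile of the mean signals of 1023 olfactory receptor probe sets, 6.51, a level taken as close to background, whereas every other member read above 7 on every array.

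Ap5m1, the AP-5 subunit, read 8.17, 7.72 and 8.20 on the arrays labelled VAChT KD 1, 2 and 3, against 7.41, 8.10 and 7.51 on WT 1, 2 and 3. Again VAChT KD 2 lay with WT 1 and WT 3, and WT 2 with VAChT KD 1 and VAChT KD 3. The labelled difference was 0.36 (SE 0.21, limma adjusted p = 0.506), and the exchanged difference 0.62, or 1.53-fold, with a gap of 0.39.

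Klhl33 of the Kelch-like family read 8.18, 7.63 and 8.03 on VAChT KD 1, 2 and 3, against 7.65, 7.91 and 7.39 on WT 1, 2 and 3. VAChT KD 2 and WT 1 were nearly equal. The labelled difference was 0.30 (SE 0.18, limma adjusted p = 0.509), and the exchanged difference 0.48, or 1.40-fold, with a gap of 0.26.

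Armh4 was the only gene of the 7 that moved with Ogdhl and not against it. It read 7.52, 8.06 and 7.76 on VAChT KD 1, 2 and 3, against 7.92, 7.32 and 8.56 on WT 1, 2 and 3. The array labelled WT 3 stood highest and WT 2 lowest, so that WT alone spanned the whole range of 1.24. The labelled means were 7.78 ± 0.27 in VAChT KD and 7.93 ± 0.62 in WT (SD, n = 3 arrays each), a difference of -0.15 (SE 0.30, limma adjusted p = 0.835), which turned to 0.16 without the array labelled WT 3. In the exchanged grouping Armh4 differed by -0.64, or 1.56-fold, with a gap of 0.16 between VAChT KD 3 and WT 1.

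Rnaseh2b read 8.27, 8.02 and 8.75 on VAChT KD 1, 2 and 3, against 8.11, 8.46 and 8.08 on WT 1, 2 and 3. Its second exchanged group was tight (8.07 ± 0.05, SD, n = 3 arrays), and its first, 8.49 ± 0.24, was stretched by the array labelled VAChT KD 3. The exchanged difference was 0.42, or 1.34-fold, with a gap of 0.16. The labelled difference of 0.13 (SE 0.20, limma adjusted p = 0.784) became -0.07 without VAChT KD 3 and -0.02 with array weights.

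Cgrrf1 was the member closest to the threshold of 1.3-fold, which is 0.3785 on the log2 scale. It read 7.89, 7.80 and 8.24 on VAChT KD 1, 2 and 3, against 7.46, 7.94 and 7.67 on WT 1, 2 and 3. Here the arrays numbered 2 differed by only 0.14, and VAChT KD 1, VAChT KD 2 and WT 2 lay close together. The labelled difference was 0.28 (SE 0.16, limma adjusted p = 0.490), not far from the exchanged difference of 0.38, just past 1.3-fold, with a gap of 0.09.

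The 2 probe sets of Med4 disagreed. Probe set 10603706 read 7.93, 7.37 and 7.58 on VAChT KD 1, 2 and 3, against 7.03, 7.64 and 7.49 on WT 1, 2 and 3. It differed by 0.42, or 1.34-fold, with a gap of 0.08 in the exchanged grouping, and by 0.24 (SE 0.19, limma adjusted p = 0.609) between the labelled groups. The brighter probe set 10416375 read 8.08, 8.12 and 8.24 on VAChT KD 1, 2 and 3, against 8.15, 8.33 and 8.05 on WT 1, 2 and 3. Its whole range was 0.28, its exchanged groups overlapped with a difference of 0.11, and its labelled difference of -0.03 (SE 0.10, limma adjusted p = 0.910) had no stable sign. Med4 thus belongs to the set through 1 probe set only.

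**Figure D2:**
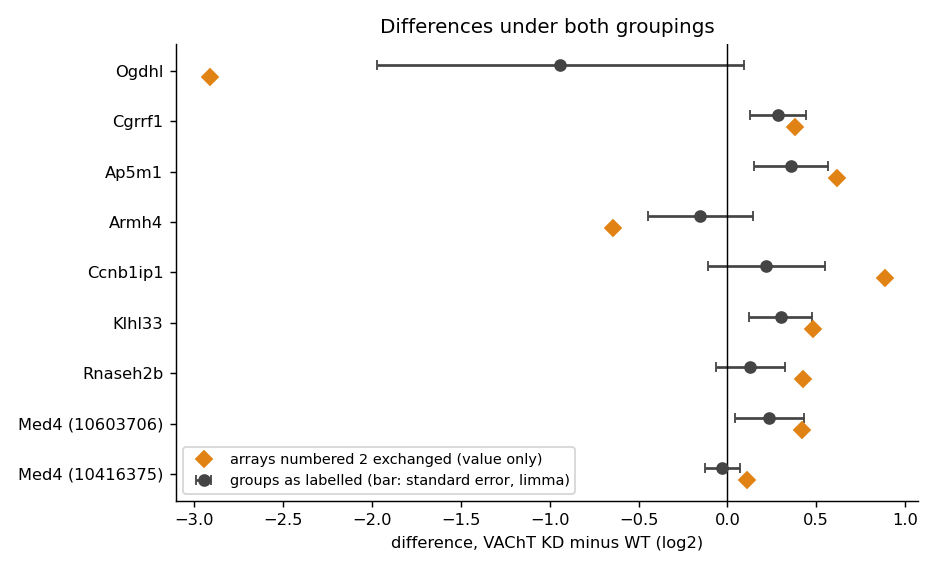
Difference in log2 signal (horizontal axis) of Ogdhl and the 8 probe sets, VAChT KD minus WT as labelled (circles, with limma's standard error) and with the arrays numbered 2 exchanged (diamonds, a value without a test). The diamonds lie farther from 0 than the circles for every probe set, from 0.11 for the brighter Med4 probe set to -2.91 for Ogdhl.

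Between the groups as labelled, none of the 8 probe sets passed an adjusted or an unadjusted p of 0.05 in limma, and the groups overlapped at all 8. Their limma adjusted p lay between 0.490 and 0.910, in a fit over all probe sets on the same arrays that chose them. Over the whole array limma called 1 probe set (0.00281%) at an adjusted p of 0.05 and 4174 at an unadjusted p of 0.05. An unadjusted p of 0.05 together with 1.3-fold was reached by 3.79% of all probe sets, 754 of them higher and 594 lower in VAChT KD, and 19.2% did not overlap between the labelled groups. This split depended on scaling, with 55.9% of the calls higher on the deposited values, 65.5% when the arrays were quantile normalized once more and 80.8% when their medians were set equal. With 3 arrays per group the smallest two-sided p of an exact permutation test is 0.1.

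In the exchanged grouping 7 of the 8 probe sets reached 1.3-fold without overlap, 6 higher and 1 lower in the first group. Over all probe sets 1.26% did so in the higher and 0.554% in the lower direction, and 12.8% did not overlap at any fold. As this contrast chose the genes, nothing is read from their share. Set against the means of arrays 1 and 3 of each genotype, each array numbered 2 lay nearer the other genotype at all 8 probe sets, as it did at 18.5% of all probe sets. Among probe sets with 1 symbol, 0.569% reached 1.3-fold without overlap, and on chromosome 14 it was 13 of 745, or 1.74%. These 13 comprised the 7 probe sets of the members, that of Ogdhl and 5 others. Probe sets were placed on a chromosome through their gene. The 13 include Med4 probe set 10603706, whose own position is not given, whereas the brighter Med4 probe set 10416375 is not among them.

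The 5 other genes of chromosome 14 with this pattern were Pnp, Rnase1, Socs4, Mir208a and Tgds. Pnp, a purine nucleoside phosphorylase, stood 4 places beyond Klhl33 and read 8.81, 8.24 and 8.77 on VAChT KD 1, 2 and 3, against 8.07, 8.63 and 7.51 on WT 1, 2 and 3, an exchanged difference of 0.79. Rnase1, a secreted ribonuclease, differed by 0.55 and Socs4, a suppressor of cytokine signaling that stood between Cgrrf1 and Ap5m1, by 0.48. Mir208a, a microRNA of heart muscle, differed by 0.44 and Tgds, a dehydratase, by 0.39. All 5 were higher in the first group, as were the members other than Armh4. Just below the threshold lay Gm5460 at -0.38, Sugt1 at 0.37, Frmpd2 at -0.36 and Abhd4 at -0.36, with Cgrrf1 at 0.38 just above it. Genes past 1.3-fold that overlapped between the exchanged groups included Gm5622 at -0.51 and the slow myosin gene Myh7 at -0.48.

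**Figure D3:**
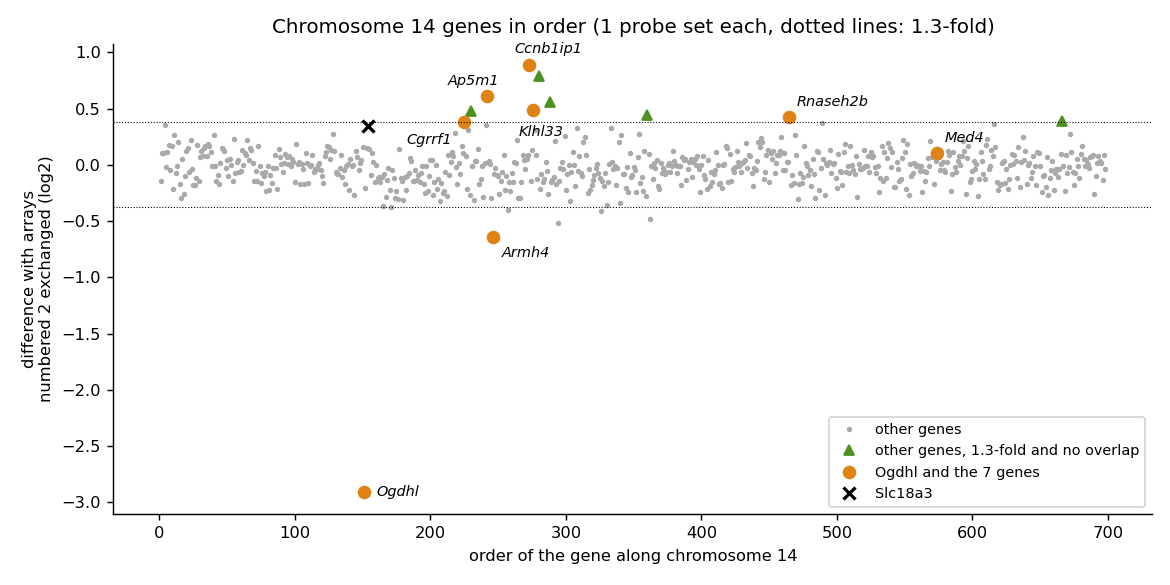
Difference in log2 signal with the arrays numbered 2 exchanged (vertical axis) against the place of each of 698 genes along chromosome 14 (horizontal axis), with the brightest probe set of each gene and dotted lines at 1.3-fold. Ogdhl at place 151 lies at -2.91, the 5 members from Cgrrf1 at 225 to Klhl33 at 276 lie outside or at the dotted lines, and Med4, drawn by its brighter probe set, lies at 0.11.

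The genes next to the members were read in the same way. Of the 16 nearest genes on either side of the members and Ogdhl, 0 reached 1.3-fold without overlap in the exchanged grouping, 12 differed by less than 0.2 in size and all lay between -0.30 and 0.36. Exoc5, an exocyst subunit next to Ap5m1, differed by 0.36, and Osgep, a tRNA modification gene next to Klhl33, by 0.31, neither with overlap. Parp2, on the other side of Klhl33, differed by 0.13 and Gmfb, next to Cgrrf1, by 0.11, again without overlap. Slc35f4, before Armh4, differed by -0.30, the direction of Armh4. Both neighbours of Ogdhl, Parg at 0.16 and 1700024G13Rik at -0.20, overlapped between the exchanged groups, as did Ttc5 at 0.08 and the RNase P RNA gene Rpph1 at -0.14 on either side of Ccnb1ip1. The neighbours of Rnaseh2b and Med4 differed by -0.18 to 0.07.

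The stretch from Cgrrf1 to Klhl33, marked out after these values were seen, held 6 of its 52 genes at 1.3-fold without overlap, namely the 5 members and Socs4. The remaining 646 genes of the chromosome also held 6, which were Ogdhl, Pnp, Rnase1, Mir208a, Rnaseh2b and Tgds. At any fold, 17 of the 52 genes did not overlap between the exchanged groups, against 106 of the 646. The median exchanged difference was -0.04 within the stretch and -0.01 outside it, over genes that went in both directions. No test was made of a stretch whose ends were set by the members. Whether lying on the same chromosome as Slc18a3 has a part in these values was not tested.

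Likeness to Ogdhl was measured as Pearson's r over the 6 arrays, among 4072 probe sets with 1 symbol and a range of at least 0.5. The Ogdhl values fall into a low and a high set of 3 arrays, so r mainly reflects which set an array belongs to. Ccnb1ip1 had the largest r in size of all, -0.99. Klhl33 at -0.94 ranked 14 and Ap5m1 at -0.92 ranked 16. Of the 4072, 27 or 0.663% reached 0.9 in size. Armh4 at 0.85 ranked 63, Rnaseh2b at -0.83 ranked 102, Cgrrf1 at -0.73 ranked 306. Med4 at -0.69 ranked 452 by its dimmer probe set 10603706, while the brighter 10416375, with an r of -0.58, was too narrow in range to be ranked. Slc18a3 itself had an r of -0.73 with Ogdhl, and its exchanged groups overlapped with a difference of 0.35.

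**Figure D4:**
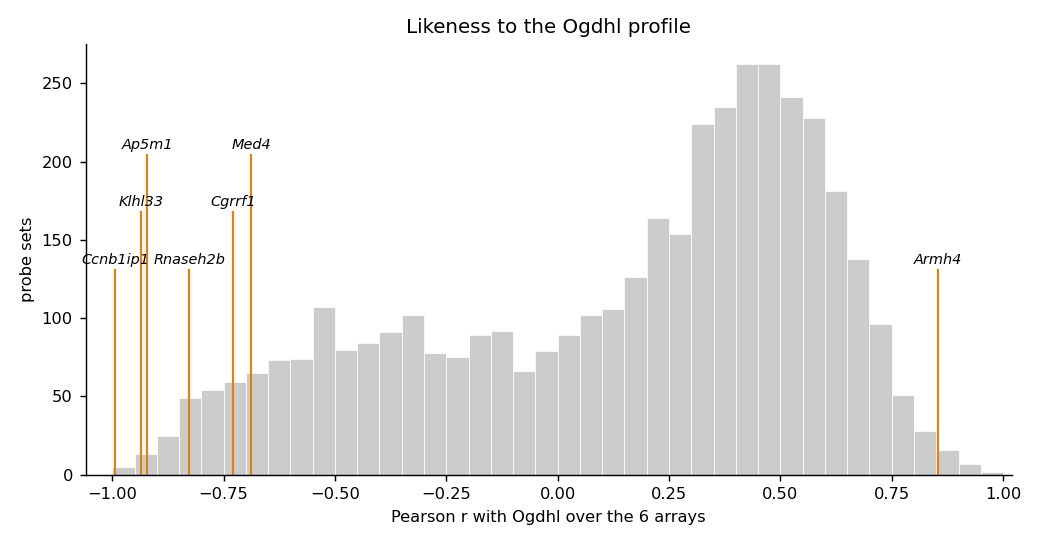
Number of probe sets (vertical axis) by Pearson's r with Ogdhl over the 6 arrays (horizontal axis) for the 4072 probe sets with 1 symbol and a range of at least 0.5, with the 7 genes (Med4 by probe set 10603706) marked by lines whose heights carry no meaning. Ccnb1ip1 stands at the left end at -0.99 and Armh4 alone on the right at 0.85.

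Besides Ccnb1ip1, the genes with the most negative r were Rnase1 of chromosome 14 at -0.97, the mitochondrial ribosomal protein gene Mrpl20 of chromosome 4 at -0.95, Gm10635 of chromosome 9 at -0.95 and Sh3bgr of chromosome 16 at -0.95. The most positive were Lce1c at 0.96, Ankrd36 at 0.96, Ajuba of chromosome 14 at 0.94, Gpha2 at 0.94 and Apc2 at 0.94, the other 4 on chromosomes 3, 11, 19 and 10. Profiles like that of Ogdhl were thus not limited to chromosome 14. Among the members themselves, the 15 pairs without Armh4 had r between 0.41 and 0.90 over the 6 arrays, with a median of 0.79 and with Med4 taken by probe set 10603706. The 6 pairs with Armh4 had r between -0.87 and -0.44, with a median of -0.65. Since the members were chosen for 1 pattern, these values describe how closely they keep to it.

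The partner genes of the members were taken from lists of the complexes and families they belong to. Over all 19938 genes, 340 were higher and 1611 lower in VAChT KD than in WT at an unadjusted p of 0.05 with limma, 0 passed the adjusted p, and the median labelled difference was -0.03. Of the 19938, 103 reached 1.3-fold without overlap when the arrays numbered 2 were exchanged. Of 31 Mediator genes, 1 was higher in VAChT KD than in WT and 0 lower at an unadjusted p of 0.05 with limma, and the median labelled difference was 0.08. That gene was Ccnc, the cyclin of the Mediator kinase module, at 0.37 (SE 0.15, adjusted p = 0.416). Med1 differed by 0.22, Med6 by 0.21 and Med7 by 0.20, none of which passed. In the exchanged grouping 1 Mediator gene, Med31, reached 1.3-fold without overlap.

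Of 8 genes of RNase H2 and nucleic acid clearance, 0 passed an unadjusted p of 0.05 in either direction. Rnaseh2a, the catalytic subunit, differed by 0.15 (SE 0.11) between the labelled groups and Rnaseh2c, the third subunit, by -0.11 (SE 0.07). Their exchanged differences were 0.19 and -0.08, against 0.42 for Rnaseh2b. Of 6 AP-5 genes 0 passed. Beside Ap5m1, the widest labelled differences were 0.15 for Spg11, 0.10 for Ap5b1, -0.08 for Ap5z1 and 0.04 for Zfyve26.

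Of 10 genes of meiotic crossing over 8 were measured with 1 symbol and 0 passed, Msh5 at -0.21 and Cntd1 at -0.18 being the widest beside Ccnb1ip1. Of 36 Kelch-like genes 1 was higher and 3 were lower in VAChT KD than in WT at an unadjusted p of 0.05. These were Klhl4 at 0.32, Klhl34 at -0.35, Klhl10 at -0.28 and Klhl35 at -0.22, each with an adjusted p of 0.409, and the median of the family was 0.03. No gene of these 5 lists passed an adjusted p of 0.05 in limma. Outside the members, Med31 alone among the genes of the 5 lists reached 1.3-fold without overlap in the exchanged grouping, and with so small a share over all genes nothing particular to the partners is read from this count.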

How the data were processed

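Heart RNA was hybridised to 3 VAChT KD and 3 WT arrays, grouped by labelled genotype. The authors summarised the scanned probes with RMA in Partek, and the deposited log2 values, already normalized across arrays, were used as they are, without a filter on low signal. The genome build is not given in the sources used here. Symbols came from the platform annotation, where 21789 probe sets carry 1 symbol, 1621 several and 12146 are unlisted, and only the first kind was named. Chromosome and order came from RefSeq GRCm38.p6, matched for 21695 probe sets.

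All 35556 probe sets were fitted in R (version 4.3.3) with the lmFit and eBayes functions of limma (version 3.58.1). Differences are VAChT KD minus WT, and p-values were adjusted over all probe sets by the Benjamini-Hochberg method. The procedure was tested on simulated data. For the exchanged grouping, values, differences and gaps were computed without a test. The members, gene lists and rules were chosen with earlier results of these data known. The genes named were the members, Ogdhl, Slc18a3, the nearest gene on each side, other chromosome 14 genes with the pattern, the 5 genes with the highest and the 5 with the lowest r with Ogdhl, and up to 4 genes of a partner list with the widest labelled difference. Genes just outside the threshold, Med31 and the stretch of chromosome 14 were picked after their values were seen. Where a gene has several probe sets the brightest stands for it unless each is given. Alternatives were a further quantile normalization, median centring, a filter at a mean signal of 5, eBayes with trend and robust settings, array weights, a block for the replicate number, leaving out each array or both arrays numbered 2, the methods' ANOVA, probe sets with 1 symbol only and 1.5-fold. The number of arrays limits the precision.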

Additional observations from a re-analysis of the deposited data

How the results depend on the processing

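Over the whole array, limma's adjusted p of 0.05 was reached by 1 probe set, by 2 with probe sets of a mean log2 signal under 5 left out, by 3 with array weights, 0 with the replicate block, 0 with both arrays numbered 2 left out, 0 with the methods' ANOVA, 0 among probe sets with 1 symbol and 0 with any 1 array left out, against 4174 at an unadjusted p of 0.05. The count at 1.3-fold and an unadjusted p of 0.05, 1348, was 1489 with the replicate block, 2800 with both arrays numbered 2 left out, 587 with the methods' ANOVA, 354 among probe sets with 1 symbol and 464 at 1.5-fold. Leaving out 1 array gave from 841 without WT 1 to 2173 without WT 2, with 2100 without WT 3. Deviations of same-numbered arrays from their group means correlated at 0.06, -0.12 and 0.13, so the numbers were not taken as pairs. In the exchanged grouping the count at 1.3-fold without overlap, 645, was 3619 with both arrays numbered 2 left out, 124 among probe sets with 1 symbol and 237 at 1.5-fold. Leaving out 1 array gave from 789 without WT 1 to 1878 without VAChT KD 2, with 1682 without WT 2, 1206 without WT 3 and 1049 without VAChT KD 1. Fewer arrays per group make an overlap less likely by construction.

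Of the labelled differences of Ogdhl and the members under these alternatives, 128 kept their direction and side of the threshold and 7 changed sign. None of 99 exchanged differences changed sign, in the contrast that chose the genes. Some of these outcomes were fixed in advance, so the counts are no measure of robustness. The signal filter, the trend and robust settings, the replicate block, the ANOVA and the restriction to 1 symbol cannot change a labelled difference here. The filter and that restriction leave the exchanged difference unchanged as well. With 1 array left out, the labelled difference of Ogdhl ran from -1.97 without VAChT KD 2 to -0.30 without WT 3. For Ccnb1ip1 it ran from 0.000565 without WT 3 to 0.53 without VAChT KD 2. With both arrays numbered 2 left out the differences of these 2 genes were -2.89 and 0.83, and with array weights -0.27 and 0.00418. That of Armh4 ran from -0.46 without WT 2 to 0.16 with 1 array left out, the latter without WT 3. That of Rnaseh2b was -0.0158 with array weights and ran from -0.0731 without VAChT KD 3 to 0.29 without VAChT KD 2. That of Med4 probe set 10416375 was 0.0371 with median centring, 0.0596 with both arrays numbered 2 left out, and from -0.0924 without WT 3 to 0.0463 without WT 2 with 1 array left out, being 0.00438 without VAChT KD 1. In the exchanged grouping Cgrrf1 fell below 1.3-fold without WT 1 (0.29) or VAChT KD 3 (0.27) and after a further quantile normalization (0.37), Rnaseh2b without VAChT KD 3 (0.30) and Med4 probe set 10603706 without WT 1 (0.29) or VAChT KD 1 (0.31). Apart from the arrays left out, the cause of these changes was not tested. The groups of 3 limit every value, and Ccnb1ip1 on its low arrays lay close to background.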

Other observations

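The exchanged pattern was not confined to chromosome 14. With the arrays numbered 2 exchanged, 13 of 745 probe sets with 1 symbol on chromosome 14 (1.74%) reached 1.3-fold without overlap. The next highest shares were 9 of 788 on chromosome 13 (1.14%), 5 of 497 on chromosome 18 (1.01%) and 7 of 712 on chromosome 12 (0.983%). Chromosome 10 followed with 10 of 1039 (0.962%) and chromosome 9 with 10 of 1311 (0.763%). The lowest shares among the autosomes were 1 of 832 on chromosome 15 (0.12%) and 2 of 1167 on chromosome 6 (0.171%). These are counts on the arrays that chose the members, and no test between chromosomes was made.

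Mrpl20 of chromosome 4, a mitochondrial ribosomal protein gene, read 8.74, 8.15 and 8.64 on the arrays labelled VAChT KD 1, 2 and 3, against 8.45, 8.70 and 8.12 on WT 1, 2 and 3. Sh3bgr of chromosome 16 read 9.20, 8.83 and 9.35 on VAChT KD 1, 2 and 3, against 8.84, 9.22 and 8.89 on WT 1, 2 and 3. In both genes, as in most of the members, VAChT KD 2 lay with WT 1 and WT 3, and WT 2 with VAChT KD 1 and VAChT KD 3.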
